A study of Mus musculus with 3 samples.

Results

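The 42 genes described here serve the folding, quality control and export of proteins in the endoplasmic reticulum (ER), and were measured by RNA-seq in mouse bone marrow pre-B cells. They were chosen by name and function, with earlier results of these data known. They comprised 7 sensors and transcription factors of the unfolded protein response, 10 chaperones and co-chaperones, 5 folding enzymes, 9 genes of ER-associated degradation, 7 subunits of the translocon and its partner complex, and 4 genes linked to secretion by plasma cells. All 42 were found among the 26286 genes of the count table, and each had counts.

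The data comprised 3 libraries of 1 group: replicate 3, replicate 1 and replicate 2. The donors were bitransgenic CAG-rtTA3;TRE-GFP-shLuc.1309 mice given Dox for 3 days, which lets rtTA3, driven by the broadly active CAG promoter, switch on a control shRNA linked to GFP, so the hairpin was expressed in the cells of every library and no untreated or non-transgenic cells were set beside them. Cells of the phenotype GFP+B220+IgM–Kit–CD25+ were sorted, a gate that holds pre-B cells in which the transgene is on. The strain background, age, and whether each library came from its own animal were not given. The p-values measure only the spread between these libraries, part of which may be technical.

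Total counts were 32086649 in replicate 3, against 12418054 in replicate 1 and 12021576 in replicate 2. Replicate 3 was also the library processed with CASAVA 1.8.0, while the other two were processed with CASAVA 1.8.2, so depth and software version cannot be told apart. All 10 pre-B markers examined, among them Pax5, Rag1 and Il2ra (which encodes CD25), exceeded 10 RPKM in every library. RPKM are counts scaled by gene length in kilobases and by library size. The pre-B markers summed to 9514 RPKM in replicate 3, against 10689 RPKM in replicate 1 and 10488 RPKM in replicate 2. Of them, 6 were lowest in replicate 3, against 4379 of all 12147 genes tested, and 4 were lowest in replicate 1. Replicate 1 stood apart in Xist, the RNA that coats the inactive X chromosome, with 102 RPKM, against 0.121 RPKM in replicate 3 and 0.438 RPKM in replicate 2. By this marker replicate 1 held female cells, and replicates 2 and 3 held few or none. Donor sex thus differed between libraries, also between replicates 1 and 2, and its part in the differences given below was not tested. The sum of neutrophil transcripts was highest in replicate 3. Summed over 10 neutrophil markers, each above 1 RPKM in every library, the level was 2322 RPKM in replicate 3, against 1308 RPKM in replicate 1 and 1567 RPKM in replicate 2. Of these neutrophil markers, 8 were highest in replicate 3, against 35.1% of all genes tested, and 2 were highest in replicate 1. The part of these neutrophil transcripts in the differences between libraries was not tested.

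The ER is where membrane and secreted proteins, immunoglobulin included, enter the secretory pathway, fold and acquire disulfide bonds and sugars. When unfolded proteins accumulate there, the membrane sensors IRE1, PERK and ATF6 raise the production of chaperones and degradation factors and slow translation, which together make up the unfolded protein response. In B cells this system is best known from the plasma cell, where XBP1 drives the expansion of the ER for antibody secretion. A pre-B cell makes the immunoglobulin heavy chain before any light chain, and BiP, the product of Hspa5, takes its name (binding immunoglobulin protein) from holding free heavy chains in the ER.

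Promoter sequences are shown because the response acts through short DNA elements, and 10 of the members were found to carry one. RefSeq promoters on the GRCm38.p6 build, from 250 bases before to 50 bases after the start, were at hand for 35 of the 42 members (37 promoters), and 32851 promoters in all were searched on both strands. The ER stress response element (ERSE), searched as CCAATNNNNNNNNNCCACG, lay in the promoters of 8 members and in 0.119% of all promoters. Its short form ERSE-II, searched as ATTGGNCCACG, lay in the promoters of 2 further members, Dnajb11 and Herpud1, and in 0.0365% of all promoters. The ERSE windows follow in the strand that carries the element, 5′ to 3′, with the fixed letters in capitals:
Hspa5: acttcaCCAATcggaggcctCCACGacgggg
Hsp90b1, upstream copy: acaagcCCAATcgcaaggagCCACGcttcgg
Hsp90b1, downstream copy: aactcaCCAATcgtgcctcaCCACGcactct
Canx: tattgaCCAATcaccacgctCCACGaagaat
Pdia6: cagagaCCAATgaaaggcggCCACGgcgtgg
Dnajc3: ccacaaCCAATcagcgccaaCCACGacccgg
Creld2: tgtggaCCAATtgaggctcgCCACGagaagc
Derl3: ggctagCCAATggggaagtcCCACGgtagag
Syvn1: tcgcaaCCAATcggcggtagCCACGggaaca
The ERSE-II windows, with the fixed letters in capitals, were these:
Herpud1: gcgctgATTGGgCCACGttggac
Dnajb11: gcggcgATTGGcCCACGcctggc
The element of Hspa5 spanned bases -65 to -47 from the start, and the copies of Hsp90b1 spanned -212 to -194 and, on the other strand, -107 to -89. In Dnajb11 the match lay past the start, at 7 to 17. The search itself fixed the spacing and the end letters and left the 9 bases between them free. These 9 bases differed among all of the ERSE windows.

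The amino acid response element, searched as TGATGCAA, was in the promoter of 1 member, Herpud1, and in 0.895% of all promoters. The unfolded protein response element, searched as TGACGTGG, was in 0 of the 37 member promoters and in 0.676% of all promoters, which says only that these letters are not in these windows. The 250 bases before the start are given for Hsp90b1 and Herpud1, the most abundant members with an element, and for Hspa5 (BiP), read along the gene with the fixed letters of each match in capitals.
Hsp90b1, chr10:86705445-86705694, minus strand of GRCm38.p6: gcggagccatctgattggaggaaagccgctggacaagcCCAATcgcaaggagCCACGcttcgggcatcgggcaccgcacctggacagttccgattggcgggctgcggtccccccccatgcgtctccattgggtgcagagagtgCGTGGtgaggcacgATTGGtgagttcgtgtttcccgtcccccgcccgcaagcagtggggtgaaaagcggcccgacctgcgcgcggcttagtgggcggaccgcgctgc
Herpud1, chr8:94386179-94386428, plus strand of GRCm38.p6: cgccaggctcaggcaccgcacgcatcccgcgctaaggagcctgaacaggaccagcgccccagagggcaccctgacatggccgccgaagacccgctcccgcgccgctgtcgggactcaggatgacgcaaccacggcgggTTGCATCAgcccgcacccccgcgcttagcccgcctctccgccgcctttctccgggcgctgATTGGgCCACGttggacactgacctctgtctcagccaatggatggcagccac
Hspa5, chr2:34771840-34772089, plus strand of GRCm38.p6: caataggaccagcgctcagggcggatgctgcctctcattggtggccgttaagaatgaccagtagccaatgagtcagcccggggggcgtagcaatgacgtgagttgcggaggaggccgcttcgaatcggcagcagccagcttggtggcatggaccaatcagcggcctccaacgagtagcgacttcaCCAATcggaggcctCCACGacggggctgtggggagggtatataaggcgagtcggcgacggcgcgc
A match is a stretch of letters and was not tested as a binding site. The count files use the older mm9 build, so these coordinates are not theirs.

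Most of the machinery was abundant in pre-B cells. The median of the 42 members was 32.1 RPKM, or 5.04 ± 0.12 on the log2(RPKM + 0.5) scale (SD, n = 3 libraries), against 5.46 RPKM and 2.57 on the log2 scale over the 17423 genes with a count. In every library 39 members exceeded 1 RPKM and 34 exceeded 10 RPKM, against 11146 and 6660 of the 17423 genes with a count. The 3 members that did not reach 1 RPKM throughout were Fkbp11, Prdm1 and Jchain, and those between were Ern1, Derl3, Sec61g, Ell2 and Sdf2l1. The members took 0.655% of the counts in replicate 3, against 0.640% in replicate 1 and 0.637% in replicate 2. In RNA from a pool of sorted cells, fewer cells expressing a gene and less RNA per cell cannot be told apart.

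**Figure D1:**
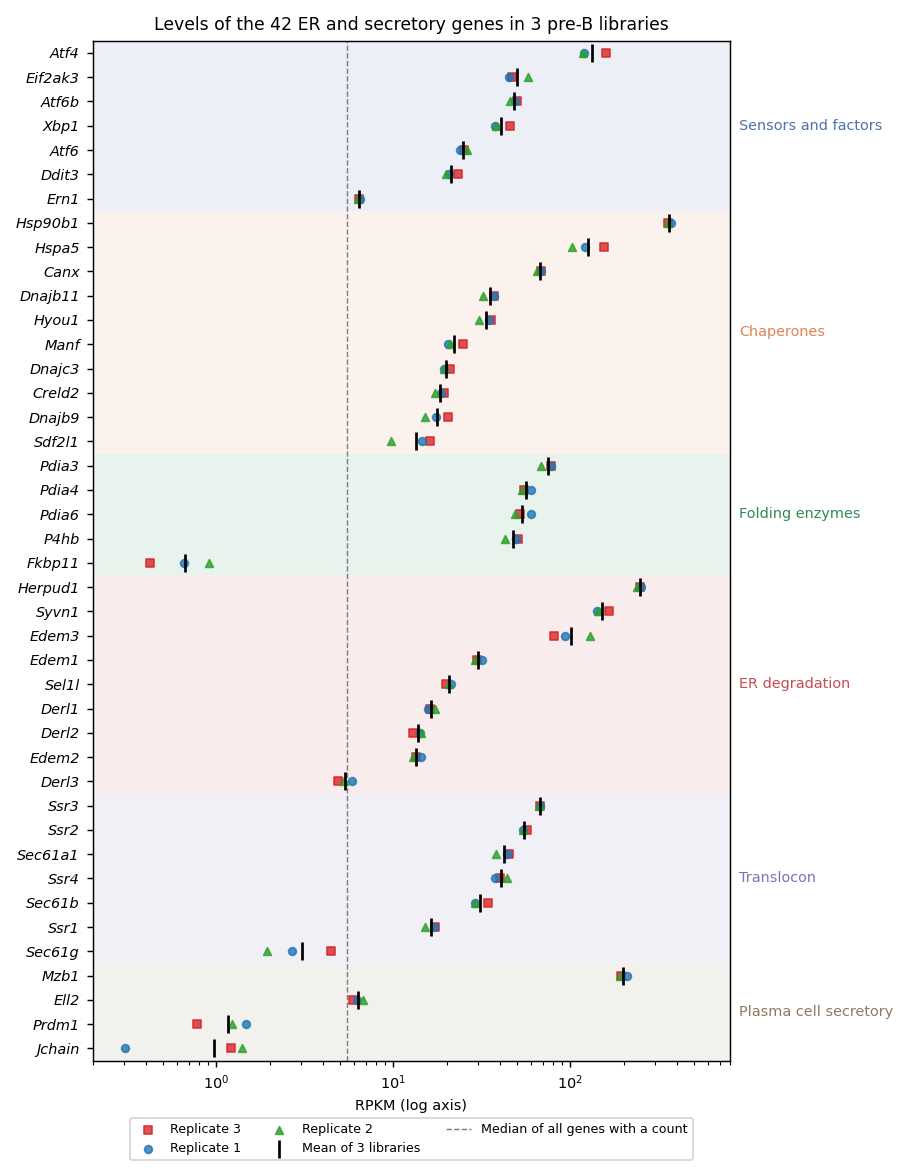
RPKM (log axis) of the 42 members in replicate 3 (squares), replicate 1 (circles) and replicate 2 (triangles), grouped by role and ordered by the mean (black bar); the dashed line is the median of all genes with a count, 5.46 RPKM. Hsp90b1, Herpud1 and Mzb1 lie at the top of the scale. Fkbp11, Prdm1 and Jchain lie lowest, with wide spread between libraries, and Sec61g and Derl3 also have means below the dashed line.

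All 3 branches of the unfolded protein response were represented at the level of their sensors. Eif2ak3, which encodes the eIF2α kinase PERK, had 46.8 RPKM in replicate 3, against 44.9 RPKM in replicate 1 and 57.7 RPKM in replicate 2. Atf6b, a relative of ATF6, averaged 48.0 ± 2.21 RPKM, and Atf6, the membrane-held factor that is cut free in the Golgi, averaged 24.9 ± 1.17 RPKM (SD, n = 3 each). Ern1, which encodes the kinase and RNase IRE1α, was the lowest sensor at 6.42 RPKM in replicate 3, against 6.50 RPKM in replicate 1 and 6.30 RPKM in replicate 2. Its 3 values lay within a coefficient of variation of 1.60%, the second smallest among the 40 members that passed the filter on low counts. They came from 822, 321 and 300 counts in replicates 3, 1 and 2. The counts did not differ beyond counting error (chi-square test against Poisson counts, adjusted p 0.938), so this rank is uncertain.

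Xbp1, whose mRNA is cut by IRE1 to give the active factor, had 45.8 RPKM in replicate 3, against 37.7 RPKM in replicate 1 and 37.9 RPKM in replicate 2. Gene counts do not separate its spliced from its unspliced form. Xbp1 exceeded Ern1 by 2.56 ± 0.16 on the log2(RPKM + 0.5) scale (SD, n = 3), a 5.91-fold difference with the same direction in each library. Atf4, the factor translated when eIF2α is phosphorylated, was the highest of the group and stood at rank 492 of 17423 genes, with 158 RPKM in replicate 3, against 120 RPKM in replicate 1 and 117 RPKM in replicate 2. Replicate 3 was the high library for Xbp1 and Atf4, with the other two close together. Ddit3, which encodes CHOP, a factor downstream of ATF4, had 23.0 RPKM in replicate 3, against 20.7 RPKM in replicate 1 and 19.7 RPKM in replicate 2. Atf4 exceeded Ddit3 by 2.60 ± 0.13 on that log2 scale, or 6.06-fold.

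Among the chaperones, the abundance of the 10 genes spanned more than an order of magnitude. Hsp90b1, which encodes the HSP90 family member GRP94, was the highest member of all, at rank 138, with 357 RPKM in replicate 3, against 368 RPKM in replicate 1 and 357 RPKM in replicate 2. Its coefficient of variation, 1.77%, was the third smallest among the tested members, and 5.04% of its 31-base words also occurred in other genes. Hspa5 was lower and less even, with 155 RPKM in replicate 3, against 121 RPKM in replicate 1 and 102 RPKM in replicate 2. Hspa5 was below Hsp90b1 by 1.53 ± 0.31 on the log2(RPKM + 0.5) scale (mean difference -1.53, ratio 0.346), and the gap was smallest in replicate 3. Canx, the membrane lectin calnexin that holds glycoproteins, followed with 68.4 RPKM in replicate 3, 68.4 RPKM in replicate 1 and 64.9 RPKM in replicate 2.

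The helpers of BiP were lower than BiP itself. Hyou1, whose product GRP170 acts as its nucleotide exchange factor, averaged 33.5 ± 2.75 RPKM, and Hspa5 exceeded it by 1.88 ± 0.21 on the log2 scale, or 3.68-fold. Of the J-domain co-chaperones, Dnajb11 averaged 35.3 ± 2.92 RPKM, Dnajc3 19.8 ± 0.841 RPKM and Dnajb9 17.7 ± 2.64 RPKM (SD, n = 3 each). Manf and Creld2, stress-induced ER proteins, averaged 22.0 ± 2.40 RPKM and 18.3 ± 1.13 RPKM. Dnajb9 had 20.4 RPKM in replicate 3, against 17.5 RPKM in replicate 1 and 15.2 RPKM in replicate 2. Sdf2l1, a partner of the Dnajb11 product, was the lowest chaperone and the most uneven of them, with 16.1 RPKM in replicate 3, against 14.5 RPKM in replicate 1 and 9.72 RPKM in replicate 2. For Dnajb9 and Sdf2l1 replicate 3 was highest and replicate 2 lowest, the same order as for Hspa5. Of the 31-base words of Dnajb9, 11.3% also occurred in transcripts of another gene, so part of its level is uncertain.

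The protein disulfide isomerases, which form and reshuffle disulfide bonds, lay close to each other. Pdia3, which works with calnexin on glycoproteins, had 77.4 RPKM in replicate 3, against 77.8 RPKM in replicate 1 and 68.3 RPKM in replicate 2. Pdia4 had 55.0 RPKM in replicate 3, against 59.6 RPKM in replicate 1 and 53.2 RPKM in replicate 2. Pdia6, which acts on BiP clients, had 52.1 RPKM in replicate 3, against 59.7 RPKM in replicate 1 and 48.5 RPKM in replicate 2. All of these had their lowest value in replicate 2, as did P4hb, the founding disulfide isomerase, at 50.9 RPKM in replicate 3, 49.0 RPKM in replicate 1 and 42.8 RPKM in replicate 2. P4hb was below Pdia3 by a steady margin, with a mean difference of -0.64 ± 0.04 on the log2(RPKM + 0.5) scale (ratio 0.640).

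Fkbp11, a peptidyl-prolyl isomerase of secretory cells, was the exception in this role. It had 10 counts in replicate 3, against 6 in replicate 1 and 8 in replicate 2, which are 0.422, 0.656 and 0.907 RPKM in that order of libraries. The 95% exact Poisson intervals, 0.202 to 0.777 RPKM in replicate 3, 0.241 to 1.43 RPKM in replicate 1 and 0.392 to 1.79 RPKM in replicate 2, overlap, and no difference between libraries was detectable at this depth. Fkbp11 did not pass the filter on low counts and was not tested.

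Genes of ER-associated degradation, which draws misfolded proteins back to the cytosol for the proteasome, ranged from among the highest members to among the lowest. Herpud1, a membrane scaffold of the degradation complex, had 248 RPKM in replicate 3, against 252 RPKM in replicate 1 and 237 RPKM in replicate 2, and stood at rank 212. Syvn1, which encodes the ubiquitin ligase HRD1, had 166 RPKM in replicate 3, against 142 RPKM in replicate 1 and 143 RPKM in replicate 2. Sel1l, the adaptor that stabilises HRD1, was far lower than its partner, at 19.9 RPKM in replicate 3, against 21.1 RPKM in replicate 1 and 20.7 RPKM in replicate 2. The difference, Sel1l minus Syvn1, was -2.84 ± 0.16 on the log2(RPKM + 0.5) scale (ratio 0.140).

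The EDEM genes, whose products trim mannose from misfolded glycoproteins, differed in level and in evenness. Edem3 had 80.3 RPKM in replicate 3, against 93.2 RPKM in replicate 1 and 129 RPKM in replicate 2. Its order of libraries was the reverse of that of Hspa5, and its coefficient of variation, 25.0%, was the third largest among the tested members. Edem1 averaged 30.1 ± 1.28 RPKM and Edem2 13.5 ± 0.697 RPKM (SD, n = 3 each). Edem1 minus Edem3 was -1.70 ± 0.38 on the log2 scale, widest in replicate 2, where it was -2.14.

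The derlins, membrane proteins of the exit channel, were led by Derl1, with Derl3 the lowest of them. Derl1 averaged 16.3 ± 0.737 RPKM and Derl2 13.8 ± 0.709 RPKM, and Derl3 had 4.86 RPKM in replicate 3, against 5.84 RPKM in replicate 1 and 5.25 RPKM in replicate 2. Derl1 exceeded Derl3 by 1.53 ± 0.15 and Derl2 exceeded Derl3 by 1.30 ± 0.08 on the log2(RPKM + 0.5) scale, in each of the 3 libraries. Derl1 shared 9.09% of its 31-base words with another gene.

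The translocon, the channel through which new chains enter the ER, and its partner, the translocon-associated protein complex encoded by the Ssr genes, held the most even of the tested members and the least even. Ssr3 had 67.0 RPKM in replicate 3, against 67.2 RPKM in replicate 1 and 66.8 RPKM in replicate 2, and its coefficient of variation of 0.346% was the smallest of all tested members. Its counts did not differ beyond counting error (chi-square test against Poisson counts, adjusted p 0.977), so this rank is uncertain. Ssr2 averaged 54.9 ± 1.94 RPKM, Ssr4 40.6 ± 3.21 RPKM and Ssr1 16.4 ± 1.06 RPKM. Ssr4 minus Ssr3 was -0.72 ± 0.12 on the log2 scale (ratio 0.607), although both encode subunits of the same complex.

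The subunits of the channel itself were not equal. Sec61a1, which encodes the pore, had 44.7 RPKM in replicate 3, against 44.1 RPKM in replicate 1 and 37.9 RPKM in replicate 2. Sec61b, a small subunit, had 34.3 RPKM in replicate 3, against 29.0 RPKM in replicate 1 and 28.9 RPKM in replicate 2. Sec61g, the other small subunit, had 4.47 RPKM in replicate 3, against 2.69 RPKM in replicate 1 and 1.93 RPKM in replicate 2, from 112, 26 and 18 counts in that order of libraries. Sec61g was the least even of the tested members, with a coefficient of variation of 43.1%, and replicate 3 was its high library. Sec61b exceeded Sec61g by 3.21 ± 0.39 on the log2(RPKM + 0.5) scale, or 9.22-fold. Both of these short genes have near-copies: 54.5% of the 31-base words of the Sec61b transcript, and 48.1% of those of Sec61g, also occurred in other genes, and how reads shared between genes were counted was not given, so both levels are uncertain.

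The genes linked to plasma cell secretion split into 1 high and 3 low members. Mzb1, an ER co-chaperone of marginal zone B and plasma cells, had 192 RPKM in replicate 3, against 210 RPKM in replicate 1 and 189 RPKM in replicate 2, and stood at rank 289. Of its transcript's 31-base words, 76.2% also occurred in transcripts of another gene model, so its level is uncertain. Ell2, an elongation factor that favours the secreted form of heavy chain mRNA in plasma cells, had 5.91 RPKM in replicate 3, against 6.24 RPKM in replicate 1 and 6.74 RPKM in replicate 2. Prdm1, which encodes the plasma cell factor Blimp-1, had 0.779 RPKM in replicate 3, against 1.47 RPKM in replicate 1 and 1.23 RPKM in replicate 2, from 129, 94 and 76 counts in that order. Replicate 3 was the low library for Ell2 and Prdm1. For Ell2 the counts did not differ beyond counting error (chi-square test against Poisson counts, adjusted p 0.233). Xbp1 exceeded Prdm1 by 4.64 ± 0.47 on the log2 scale, or 25.0-fold.

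Jchain, the joining chain of polymeric antibody, had the largest coefficient of variation of the 42 members, 59.9%. It had 1.21 RPKM in replicate 3, against 0.306 RPKM in replicate 1 and 1.39 RPKM in replicate 2, from 82, 8 and 35 counts. The exact Poisson intervals of replicate 3 (0.964 to 1.50 RPKM) and replicate 2 (0.968 to 1.93 RPKM) overlap each other and not that of replicate 1 (0.132 to 0.604 RPKM). Mzb1 exceeded Jchain by 7.16 ± 0.75 on the log2(RPKM + 0.5) scale. Of the 8 plasma cell markers examined, 5 exceeded 1 RPKM and 3 (Irf4, Slamf7 and Sdc1) exceeded 10 RPKM in every library. The same levels were exceeded by 11146 and 6660 of the 17423 genes with a count. Tnfrsf17 and Ighg1, chosen after their values were seen, were the lowest of these markers by mean, at 0.0765 to 0.103 RPKM and 0.109 to 0.147 RPKM. Igha, the class-switched heavy chain IgA, had 10.1 RPKM in replicate 3, against 2.36 RPKM in replicate 1 and 3.67 RPKM in replicate 2.

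**Figure D2:**
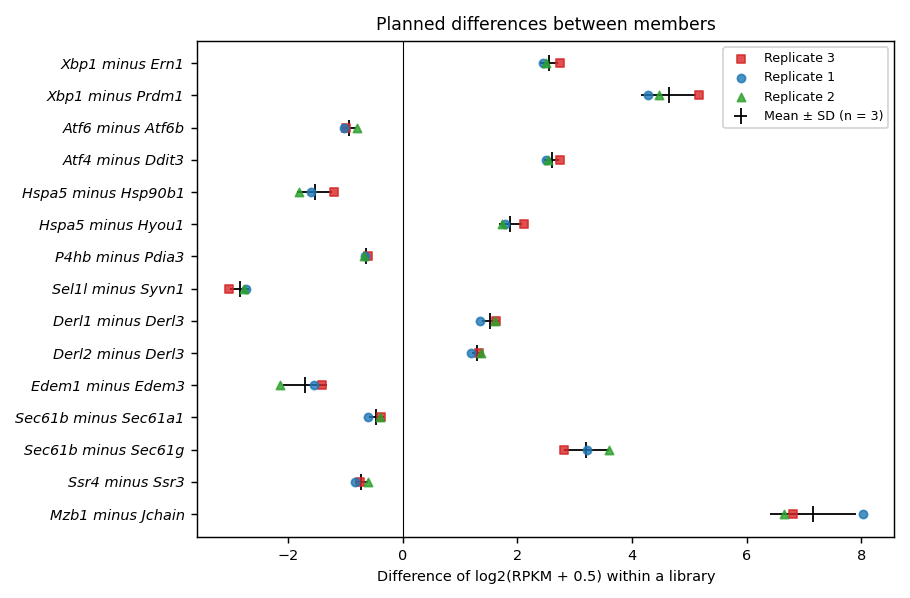
Differences within a library between the 15 pairs of members compared, on the log2(RPKM + 0.5) scale, for replicate 3 (squares), replicate 1 (circles) and replicate 2 (triangles), with the mean ± SD (black, n = 3). Every pair keeps its side of 0 in all 3 libraries; Mzb1 minus Jchain is the widest at 7.16 and Sec61b minus Sec61a1 the narrowest at -0.45.

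All 15 differences had the same sign in the 3 libraries, but 3 libraries allow a two-sided exact sign-flip p no smaller than 0.25, so none could pass 0.05. Level comparisons between genes rest on the gene lengths deposited with the counts. Atf6 was below Atf6b by this measure (mean difference -0.93 ± 0.12, ratio 0.524), and the sign reversed to 0.61 when levels were not divided by length. For Sec61b against Sec61a1 the mean difference was -0.45 ± 0.12 (ratio 0.730).

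Between libraries, most members differed beyond counting error, and none passed the test for more spread than genes of like abundance. In a chi-square test against Poisson counts, 27 of the 40 tested members (67.5%) passed an adjusted p of 0.05, against 54.6% of all 12147 genes tested. By role, the test called 9 of 10 chaperones, 4 of 4 folding enzymes, 5 of 7 sensors and factors, 4 of 9 degradation genes, 3 of 7 translocon genes and 2 of 3 plasma cell genes. Creld2 was the chaperone that was not called. The chi-square test detects smaller differences at higher counts. The members were the more abundant, with a median of 32.1 RPKM against 5.46 RPKM over all genes with a count. The shares of members and of all genes are therefore not matched for level. Without replicate 2 the count of members was 13, without replicate 3 it was 16 and without replicate 1 it was 20. In edgeR's test of each gene's variability, 0 of 40 members and 0.0165% of all genes passed after adjustment. At an unadjusted p under 0.05 it called 2 members, Hspa5 and Edem3, against 5.30% of all genes.

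The coefficient of variation had a median of 7.55% over the tested members, against 9.76% over all genes tested. Relative counting error falls as counts rise, so these medians are not matched for level either. The members with the largest values were Sec61g, Prdm1 (30.3%) and Edem3, and those with the smallest were Ssr3, Ern1 and Hsp90b1. Hspa5, at rank 520, had a coefficient of variation of 21.4%, and Ern1, the lowest of the sensors and factors, had 1.60%. The counts of Ern1 did not differ beyond counting error in the chi-square test. Whether abundance orders these values was not tested.

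Replicate 2 was most often the low library and replicate 3 most often the high one. Of the 40 tested members, 19 (47.5%) were highest in replicate 3, against 35.1% of all genes tested, and 25 (62.5%) were lowest in replicate 2, against 36.3% of all genes. Among the chaperones, 8 of 10 were highest in replicate 3 (9 with DESeq2 size factors or with no scaling) and 7 were lowest in replicate 2. The exceptions at the top were Hsp90b1 and Canx, both highest in replicate 1, though Canx was nearly equal in replicate 3. All 4 tested folding enzymes and 6 of 7 translocon genes were lowest in replicate 2. Among these translocon genes, Ssr3, Ssr2 and Sec61b were nearly equal in replicates 1 and 2, and the chi-square test did not call them. The degradation genes had no such order: 1 of 9, Syvn1, was highest in replicate 3, 5 in replicate 1 and 3 in replicate 2.

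**Figure D3:**
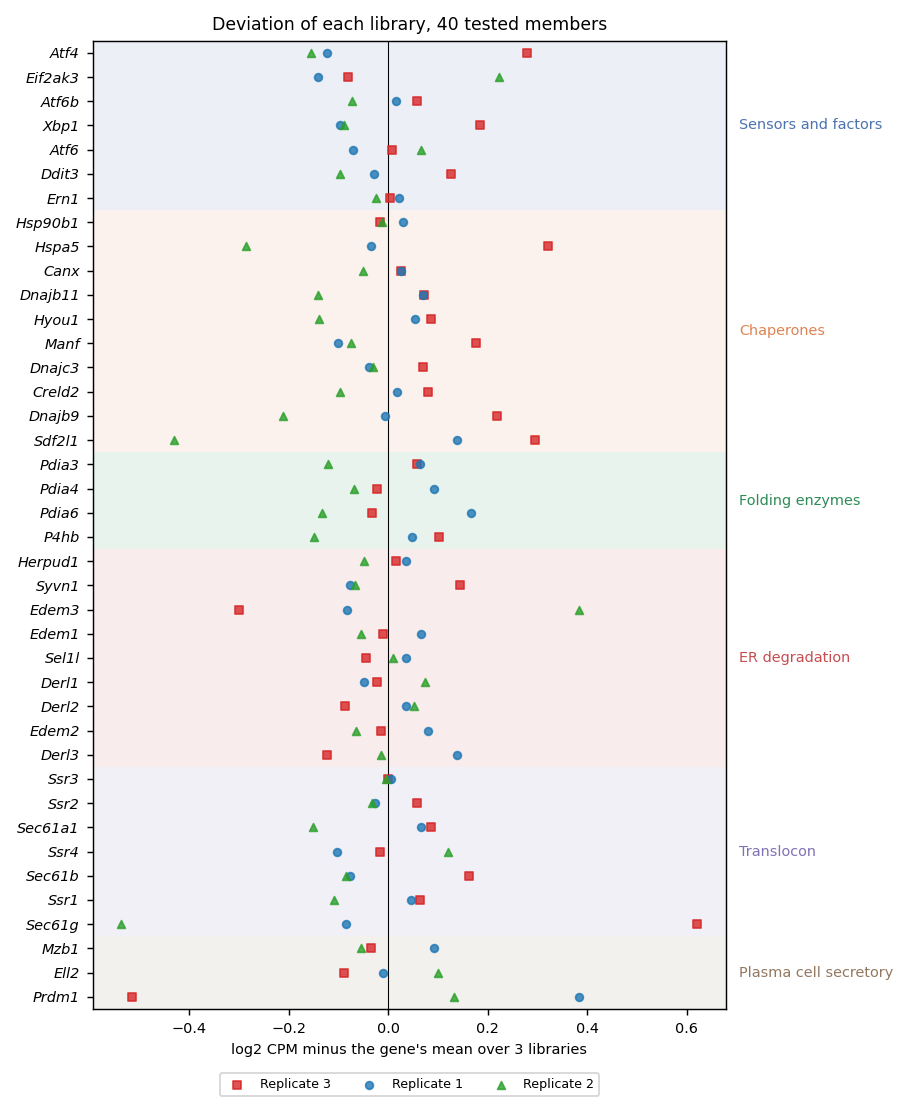
Deviation of each library from the gene's own mean, in log2 CPM, for the 40 tested members by role; replicate 3 is drawn as squares, replicate 1 as circles and replicate 2 as triangles. Hspa5, Sdf2l1, Dnajb9 and Sec61g run from replicate 3 at the right to replicate 2 at the left, and Edem3 runs the other way.

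Replicate 3 was then set against replicates 1 and 2, the only split that the labels give. This compares 1 library with 2 others and no condition. edgeR's quasi-likelihood test with Benjamini-Hochberg adjustment called 0 of the 40 members higher and 0 lower, against 0.0576% of all genes called higher and 0.0165% called lower, and DESeq2 called 0 members. At an unadjusted p under 0.05, 4 members were on the higher side (Atf4, Hspa5, Xbp1 and Sec61g), against 5.01% of all genes, and 2 on the lower side (Edem3 and Prdm1), against 4.62% of all genes. The median log2 fold change was 0.06 over the members and -0.01 over all genes tested.

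The values for these members did not pass the adjusted threshold in that test. Atf4 had a log2 fold change of 0.42 ± 0.119 (SE) with an adjusted p of 0.368 in edgeR's quasi-likelihood test. Hspa5 had 0.48 ± 0.147 with an adjusted p of 0.405 in edgeR, and Xbp1 had 0.28 ± 0.118 with an adjusted p of 0.513 in edgeR. Sec61g had 0.95 ± 0.331 with an adjusted p of 0.432 in edgeR. On the other side, Prdm1 had -0.79 ± 0.279 with an adjusted p of 0.436 in edgeR, and Edem3 had -0.47 ± 0.197 with an adjusted p of 0.505 in edgeR. No chaperone was called; 9 of 10 had a log2 fold change above 0, as did 5919 of all 12147 genes tested, and their median was 0.12. Of the degradation genes 7 of 9 were below 0, with a median of -0.04, and all 3 tested plasma cell genes were below 0. So were 6228 of all 12147 genes tested. Among the degradation genes below 0, Edem1 (-0.02), Edem2 (-0.02) and Derl1 (-0.04) lay near 0.

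**Figure D4:**
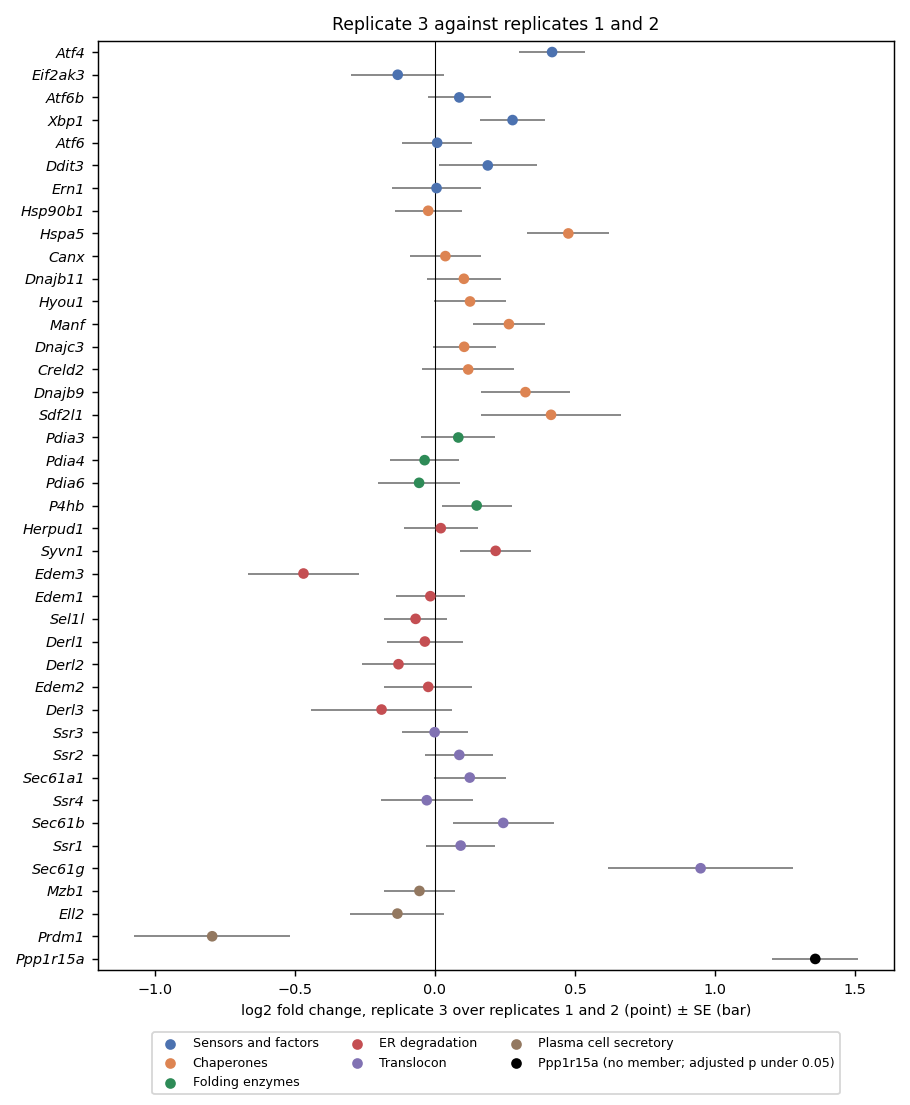
Log2 fold change of replicate 3 over replicates 1 and 2 (points) with its standard error (bars) for the 40 tested members, coloured by role, and for Ppp1r15a, which is no member. Sec61g (0.95) and Prdm1 (-0.79) lie farthest from 0 among the members, and Ppp1r15a (1.36) lies beyond them.

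Members with and without a stress element in the promoter were set side by side. The 10 members with an ERSE or ERSE-II match had a median level of 60.3 RPKM, ranging from 5.32 RPKM (Derl3) to 361 RPKM (Hsp90b1). The 25 members with a promoter entry and no match had a median of 21.2 RPKM, ranging from 0.662 RPKM (Fkbp11) to 132 RPKM (Atf4). The ranges overlap between 5.32 and 132 RPKM, and no test was made. In the comparison of libraries, 5 of 10 members with a match were highest in replicate 3, as were 10 of the 23 tested members without one, and the median log2 fold change was 0.07 with a match and 0.01 without.

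The wider pathway was followed in 79 further genes, of which 72 were tested. Their median level, 4.83 on the log2(RPKM + 0.5) scale, was close to that of the members, and 41 of 72 (56.9%) differed beyond counting error, near the 54.6% of all genes tested. The 14 other ER folding genes ranged from Erp29 (184 RPKM in replicate 3, against 192 RPKM in replicate 1 and 186 RPKM in replicate 2) to Pdia5, which was near 0. The 9 oligosaccharyltransferase genes, which add N-linked sugars, ranged from Ostc (53.1 RPKM in replicate 3, against 50.1 RPKM in replicate 1 and 54.4 RPKM in replicate 2) to Tusc3 (5.61 RPKM in replicate 3, against 4.81 RPKM in replicate 1 and 5.04 RPKM in replicate 2). In neither list did edgeR's quasi-likelihood test call a gene.

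The 15 genes of targeting and signal peptide removal were led by Sec11c, a signal peptidase subunit, at 232 RPKM in replicate 3, against 235 RPKM in replicate 1 and 257 RPKM in replicate 2. Srprb, a subunit of the receptor for the signal recognition particle, was the lowest at 8.46 RPKM in replicate 3, against 7.05 RPKM in replicate 1 and 6.53 RPKM in replicate 2. The 11 other degradation genes ran from Vcp, the ATPase that extracts substrates (73.1 RPKM in replicate 3, against 70.8 RPKM in replicate 1 and 69.4 RPKM in replicate 2), to Erlec1, a lectin (9.24 RPKM in replicate 3, against 9.96 RPKM in replicate 1 and 12.7 RPKM in replicate 2). Genes of ER exit and the Golgi, 19 in number, ran from Sec13, a coat subunit (67.1 RPKM in replicate 3, against 70.2 RPKM in replicate 1 and 64.3 RPKM in replicate 2), to Kdelr3, a retrieval receptor that stayed below 0.4 RPKM. None of these 3 lists held a gene called between replicate 3 and the other libraries in edgeR's test.

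**Figure D5:**
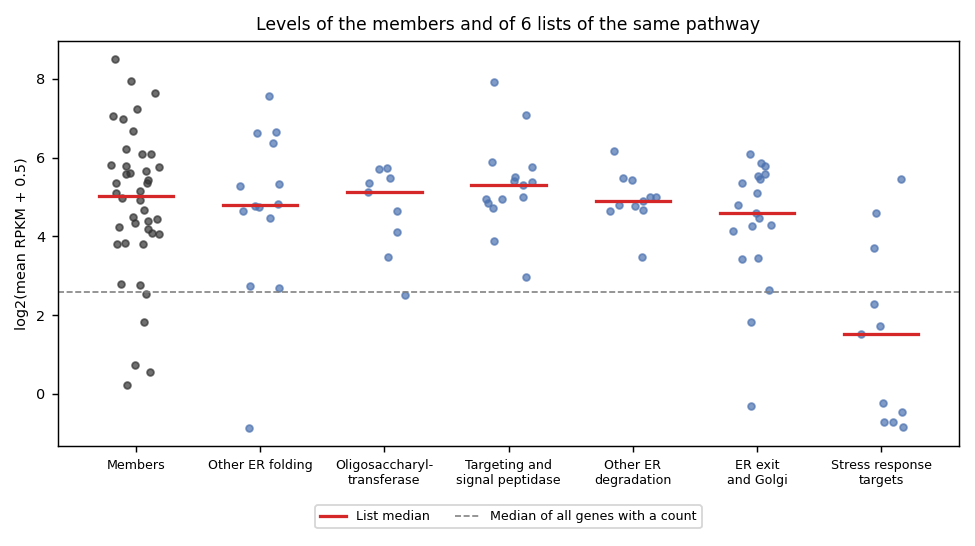
Level of each gene, as log2 of the mean RPKM plus 0.5, for the 42 members and the 6 lists of the wider pathway; red bars are list medians and the dashed line is the median of all genes with a count. The members and 5 of the lists centre well above the dashed line, and the targets of the stress response centre below it.

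The 11 targets of the stress response downstream of ATF4 and CHOP were the low list, with a median of 1.48 ± 0.40 on the log2(RPKM + 0.5) scale (SD, n = 3). Psat1, an enzyme of serine synthesis, was its highest gene, with 49.8 RPKM in replicate 3, against 43.4 RPKM in replicate 1 and 36.1 RPKM in replicate 2. Trib3, Asns, Atf3, Chac1 and Nupr1 stayed below 0.5 RPKM in every library and were not tested. All 6 tested genes of the list were highest in replicate 3 and lowest in replicate 2, against 35.1% and 36.3% of all genes tested. Of the 6, 5 differed beyond counting error, against 54.6% of all genes tested.

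Ppp1r15a, which encodes GADD34, the phosphatase subunit that reverses eIF2α phosphorylation, was the only gene among the members and these 6 lists to be called. It had 21.1 RPKM in replicate 3, against 8.59 RPKM in replicate 1 and 7.90 RPKM in replicate 2. Its log2 fold change was 1.36 ± 0.153 (SE), with an adjusted p of 0.0448 in edgeR's quasi-likelihood test, which sets a lone library against 2 others and takes it to vary as they do. The adjusted p was 0.305 with all genes with a count and 0.0910 once counts of replicate 3 were drawn down to the depth of replicate 2, which ends the call, and 0.000284 in DESeq2. The call describes replicate 3 and no condition.

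Immediate early and heat shock genes, which respond fast to stimulation and stress, had the same order of libraries. Of 10 immediate early and heat shock genes (such as Fos, Jun and Dnajb1), 9 were tested. All 9 were highest in replicate 3 and lowest in replicate 2, against 35.1% and 36.3% of all genes tested. In edgeR's variability test 0 of the 9 passed after adjustment. At an unadjusted p under 0.05 that test called 7 of them, against 5.30% of all genes. The summed level of all 10 was 402 RPKM in replicate 3, against 260 RPKM in replicate 1 and 197 RPKM in replicate 2. Hspa5, Dnajb9, Sdf2l1 and Ppp1r15a had this order too, as did other members, among them P4hb, Sec61a1 and Ssr1. Edem3 had the reverse order. The part of the immediate early and heat shock genes in the order of the ER genes was not tested.

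The sort for B220 and CD25 without surface IgM selects against most macrophages, basophils, erythroid cells, T and NK cells and plasma cells, while plasmacytoid dendritic cells carry B220. Marker sums of these cell types were lower than that of the neutrophil list. The 5 macrophage markers, of which 3 exceeded 1 RPKM in every library and Lyz2 gave most of the total, summed to 237 RPKM in replicate 3, against 165 RPKM in replicate 1 and 194 RPKM in replicate 2. The 4 basophil markers, of which only Prss34 exceeded 1 RPKM in every library, summed to 22.6 RPKM in replicate 3, against 3.21 RPKM in replicate 1 and 6.72 RPKM in replicate 2. Plasmacytoid dendritic cells, another cell type with an enlarged ER, gave 14.3 RPKM in replicate 3, against 9.42 RPKM in replicate 1 and 10.6 RPKM in replicate 2 over 4 markers. The 8 T and NK cell markers lay between 12.7 and 14.6 RPKM in sum, mostly from Lck, with Cd3e between 0.168 and 0.260 RPKM. The 5 erythroid markers lay between 7.11 and 7.90 RPKM in sum. The 8 plasma cell markers, of which Ighg3 was at 0 in replicate 1, summed to 361 RPKM in replicate 3, against 389 RPKM in replicate 1 and 393 RPKM in replicate 2, of which Irf4, also a pre-B factor, made up more than any other gene, with 222 RPKM in replicate 3, against 252 RPKM in replicate 1 and 245 RPKM in replicate 2.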

How the data were processed

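RNA of 3 libraries of sorted pre-B cells was sequenced. The authors deposited raw read counts per Entrez gene, beside each gene's length. The submitters' processing notes name CASAVA, featureCounts and mm9; the sources used here do not give the aligner, annotation, strand setting or rule for shared reads. Symbols came from NCBI RefSeq (GRCm38.p6) by Entrez identifier, for names only: 24176 of 26286 identifiers matched, and the others took 2.84% to 2.97% of counts.

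Tests were run in edgeR 4.0.16 (R 4.3.3) with TMM scaling and filterByExpr (minimum count 10, minimum total 15), which kept 12147 genes and 40 members. RPKM was computed here with the deposited lengths, and level differences use log2(RPKM + 0.5). Spread was tested by a chi-square of counts against Poisson and by an F test in an intercept-only quasi-likelihood fit (prior degrees of freedom 5.92, biological coefficient of variation 13.1%). Replicate 3 against replicates 1 and 2 used glmQLFTest; DESeq2 1.42.0 was run beside it. Each p was adjusted over all genes tested by Benjamini-Hochberg at 0.05.

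At a length of 1 kb, 3 counts are 0.0932 RPKM in replicate 3, 0.242 RPKM in replicate 1 and 0.250 RPKM in replicate 2. Intervals cover counting error only. Words of 31 bases were taken from the GENCODE M21 transcript nearest the deposited length. Figures were drawn with matplotlib 3.10.9.

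The members, their roles, the lists, the pairs compared and the tests were chosen with earlier results of these data known. By the naming rule, values by library, or a mean with its SD, are given for the 3 highest and 2 lowest members of each role and for called members. The same holds for the 3 largest and 3 smallest coefficients of variation, the genes of the pairs compared, and the ends and called genes of each list. Other genes, among them Igha, Ighg1, Tnfrsf17, Irf4 and Xist, were named after their values were seen. Alternatives were other scaling, filter, tool, unit and pseudocount, a robust fit and leaving out each library; the library order under other scalings was added after seeing the data.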

Additional observations from a re-analysis of the deposited data

How the results depend on the processing

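All 15 differences between members kept their sign and stayed within 1 SD with other pseudocounts. Leaving out a library could not move a mean of 3 by as much as 1 SD, nor turn a sign shared by all 3, so it says nothing about the stability of differences or levels. With CPM in place of RPKM, which ignores length, 12 moved by more than 1 SD and 1 reversed, Atf6 minus Atf6b, at 0.61. Member levels did not move by more than 1 SD under other scalings; in TPM, another unit, their median was 76.1. Without each library in turn, the Poisson test called 3145 to 5590 genes (6627 with all) and 13 to 20 members (27 with all), with fewer samples in each fit. The variability test called 47 genes with all genes with a count, 0 with a robust fit and 2 to 44 without each library, against 2. In replicate 3 against replicates 1 and 2, the higher genes numbered 21 in DESeq2, 19 with no scaling beyond the total, and 0 with all genes with a count or with replicate 3 thinned, against 7. The lower genes numbered 15 in DESeq2, 4 with no scaling, and 0 with all genes with a count or with replicate 3 thinned, against 2. The cause was not tested. In none of these settings was a member called in the variability test or in the contrast. No paired analysis was possible because the libraries form 1 group. The chaperones highest in replicate 3 numbered 9, against 8, with DESeq2 size factors, no scaling or thinning. Depth limits Fkbp11, Jchain and Sec61g, and 1 library against 2 limits the contrast.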
